A study of Mus musculus with 34 samples.

Results

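The genes described here are 39 interferon-stimulated genes of the mouse, followed in lung RNA 28 days after carbon nanotube materials were placed in the airways. Each gene was represented by the array probe whose RefSeq accession maps to it and, where there were several, by the probe with the highest mean Cy5 signal. Of the 39 genes, 37 were matched to a probe and all 37 were well above background often enough to be tested, among 29316 genes and unnamed transcripts tested in all. Mx1 and Mx2, 2 classic antiviral GTPases, were not matched and are not analysed here.

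Interferons are secreted proteins that warn cells of viruses and of misplaced nucleic acid. Type I interferons act through factors that include STAT2 and IRF9 and bind the interferon-stimulated response element (ISRE) in front of their target genes, and interferon gamma, made by T and NK cells, acts mainly at the gamma-activated site (GAS). The induced proteins cut or bind foreign RNA, block protein synthesis, tag proteins with ISG15, or attract T cells, and in the lung they are known from infection as well as from inflammation by inhaled matter.

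The mice were female C57BL/6, aged 5 to 7 weeks. They received 1 of 3 carbon nanotube materials (coded NRCWE-043, NRCWE-044, NRCWE-045), at 18 or 54 µg in 40 µl, by 1 instillation into the trachea, and lungs were taken on day 28. The controls numbered 5. At 18 µg there were 5 mice with NRCWE-043, 6 with NRCWE-044 and 3 with NRCWE-045, and each 54 µg group held 5. Nothing in the labels says what, if anything, the controls received. Lung RNA carried Cy5 on each of the 34 arrays and a reference RNA pooled from 11 mouse cell lines carried Cy3, so every value below is a log2 ratio of lung to reference RNA, and a negative value means less signal than in the reference. Whole lung was measured, so fewer cells of a type and less RNA per cell cannot be told apart.

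Between 50.8 and 68.5% of spots were well above background in Cy5 on an array. Markers of lung epithelium and endothelium, such as the surfactant genes Sftpc and Sftpb, were well above background on all 34 arrays. Replicate 1 of NRCWE-043 at 54 µg stood apart from all other arrays in the genes described here, so the main results that include it are given with and without it. The arrays sat on 6 slides, and the controls on 4 of them. Cxcl9 was well above background on 27 of the 34 arrays, and each of the other 36 members on all 34.

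A score was computed for each array as the mean, over the 37 members, of the log2 ratio minus the mean of the 5 controls. The controls themselves spread from -0.31 to 0.44, with scores of 0.44, -0.15, -0.31, 0.12 and -0.09 (SD 0.287, n = 5). At 54 µg of NRCWE-043 the scores were 1.35, 0.03, 0.14, 0.30 and 0.32 (mean 0.427, SD 0.528, n = 5). One of these 5 arrays lay above the highest control and the other 4 lay inside the control range, and without replicate 1 the group mean was 0.197.

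At 54 µg of NRCWE-044 the scores were 0.12, 0.50, 0.07, 0.03 and 0.35 (mean 0.215, SD 0.204, n = 5), and 1 array exceeded the highest control. At 54 µg of NRCWE-045 they lay within a narrow band from -0.10 to 0.09 (SD 0.073, n = 5), inside the control range. The groups given 18 µg also stayed inside it, with means of -0.070 (SD 0.080, n = 5) for NRCWE-043, -0.037 (SD 0.162, n = 6) for NRCWE-044 and 0.125 (SD 0.224, n = 3) for NRCWE-045.

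**Figure D1:**
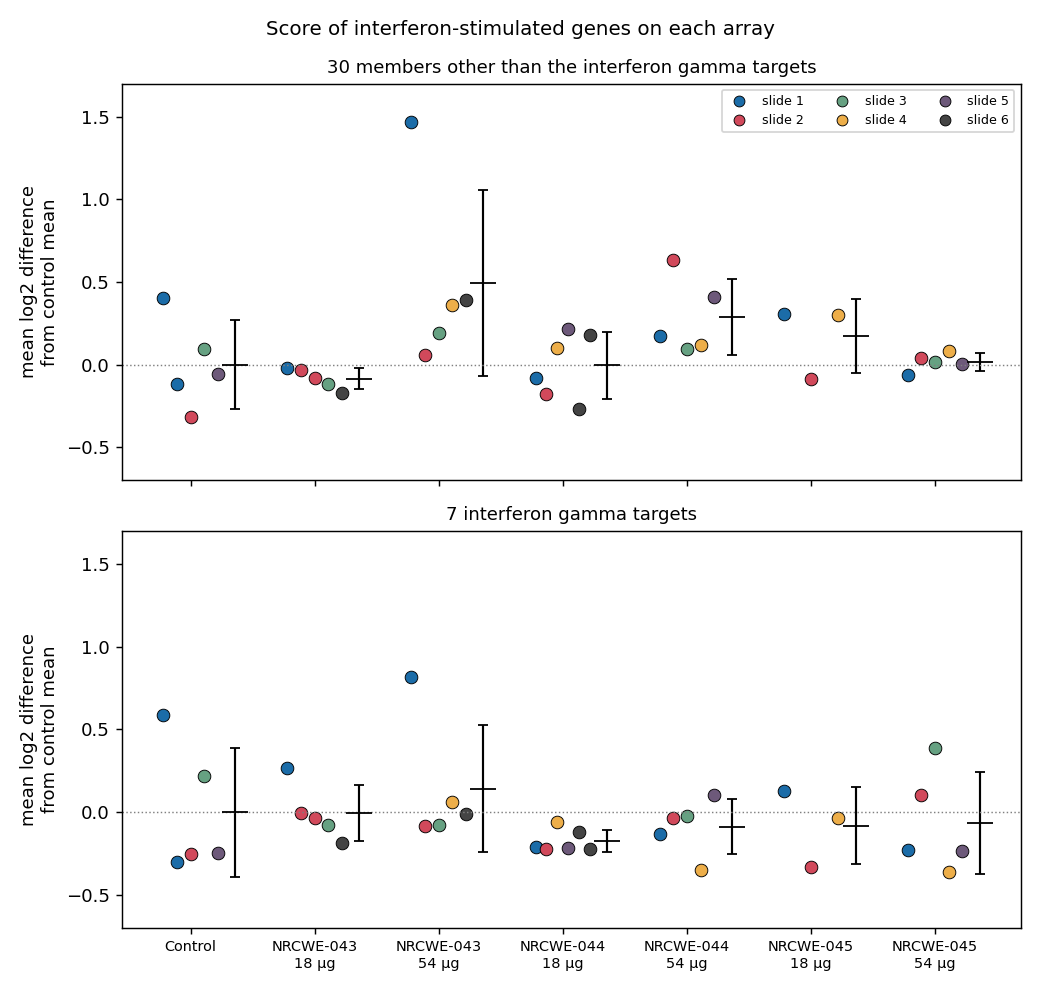
Mean log2 difference from the control mean (vertical axis) on each array in the 7 groups, for the 30 members other than the interferon gamma targets (upper panel) and for the 7 interferon gamma targets (lower panel), with points coloured by slide and a bar with whiskers for the group mean and SD. Replicate 1 of NRCWE-043 at 54 µg lies at 1.47 and 0.82, and the next highest array in the upper panel lies at 0.63.

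The question the design poses is whether each material and dose shifted lung expression away from the controls. In limma, with p-values adjusted over all 29316 tested features, 0 of the 37 members passed 0.05 in any comparison, and the smallest adjusted p of a member against the controls was 0.437. Counts at an unadjusted p under 0.05 are therefore given as a description, each beside the share of all tested features that met the same rule. The comparisons of the doses and materials with the controls all use the same 5 control arrays.

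For 54 µg of NRCWE-043, 36 of 37 members were above the control mean, with a median log2 difference of 0.34, where 46.8% of all features were above it, with a median of -0.01. Of the 37, 21 were higher at an unadjusted p under 0.05 and 0 lower, against 2.52% of all features higher. Without replicate 1 the median was 0.17 and the count 7, against 2.08% of features. In mice given 54 µg of NRCWE-044, 30 members were above the control mean (median 0.17, against 50.1% of features above it) and 9 met the unadjusted threshold, against 3.24% of features. That count was 4 without replicate 2 of that group, 14 without control replicate 1 and 5 without control replicate 3.

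With 54 µg of NRCWE-045, 16 of 37 members were above the control mean, against 50.5% of features, and the median was -0.01. None was higher at the unadjusted threshold (0 of 37, against 2.02% of features in limma), and 1, Bst2, was lower, against 1.91%. Over the 15 arrays at 54 µg, 32 members were above the control mean (median 0.16, against 49.3% of features above it) and 8 were higher at the unadjusted threshold, against 2.86% of features. That count ranged from 5 to 14 as single arrays were left out, and was 14 without control replicate 1. The median was 0.10 without replicate 1 of NRCWE-043, 0.08 without control replicate 3 and 0.27 without control replicate 1. Oas2, Usp18 and Oas1a had the smallest p of the members over these arrays in limma, with differences of 0.70 ± 0.21, 0.43 ± 0.13 and 0.81 ± 0.26. Without replicate 1 of NRCWE-043 these were 0.59, 0.35 and 0.67.

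**Figure D2:**
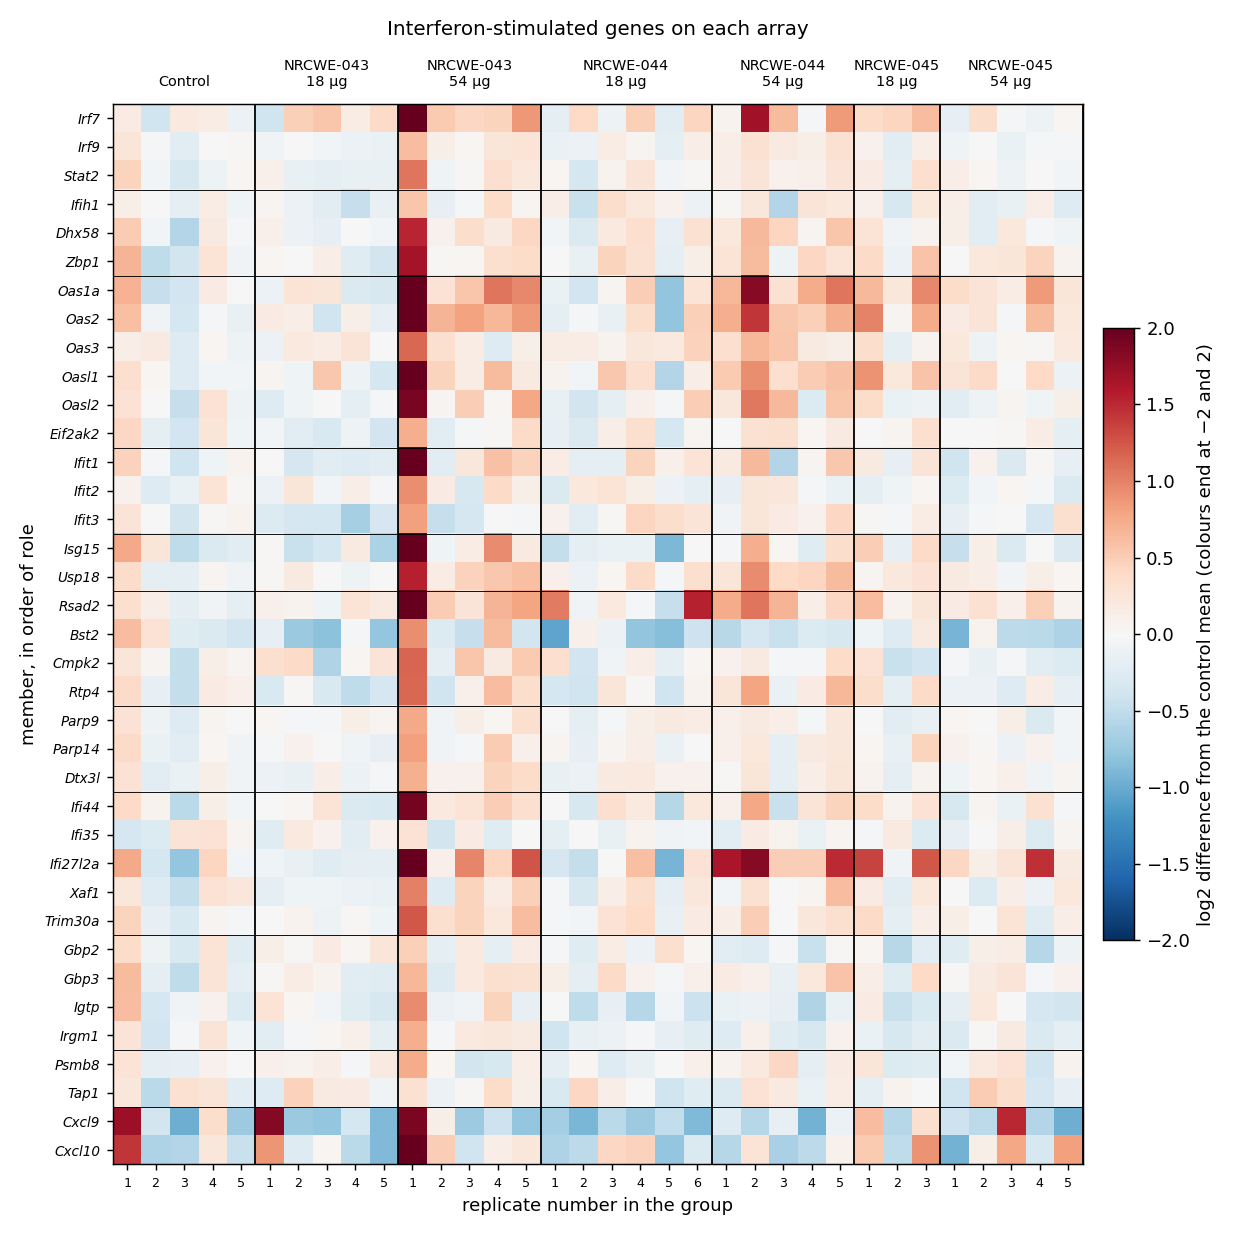
Difference of each member from its control mean (log2, colour) on each of the 34 arrays, with members in rows by role and arrays in columns by group. Replicate 1 of NRCWE-043 at 54 µg lies above every control in 35 of 37 members, and no other array does so in more than 17.

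The members' promoters were searched for the core letters of the element read by the type I interferon factors. RefSeq promoter windows, 250 bases before to 50 after the transcription start on the build GRCm38.p6, were held for 29 of the 39 genes. The ISRE core, searched on both strands as TTTC, any 2 bases and TTTC again, was found in 16 of the 29 (55.2%), against 3.99% of 27025 genes with windows of the same length. A gene with several windows counted once, if any of them held a match. The GAS core, TTCNNNGAA, which reads the same on both strands, was found in 7 of 29 (24.1%), against 9.55%. The motifs were searched separately and their matches may overlap.

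The stretches below come from these RefSeq windows, run 5′ to 3′ on the gene's strand, and mark in capitals every ISRE match, with overlapping matches joined. They are shown because they cover members with contrasting values at 54 µg of NRCWE-043: Oas1a, Isg15, Ifit1 and Rsad2 on one side and the interferon gamma targets Gbp2 and Igtp on the other. Without replicate 1 of that group the differences from the controls were 0.72, 0.30, 0.26 and 0.56, and -0.01 and 0.02. With 54 µg of NRCWE-044, Isg15 differed by 0.16. The stretches lie at chr5:120907506-120907575 (minus strand) for Oas1a, chr4:156200857-156200926 (minus) for Isg15, chr19:34640755-34640824 (plus) for Ifit1, chr12:26456533-26456602 (minus) for Rsad2, chr3:142620574-142620643 (plus) for Gbp2 and chr11:58199492-58199561 (plus) for Igtp.
Oas1a: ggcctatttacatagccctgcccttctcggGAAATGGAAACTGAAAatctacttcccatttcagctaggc
Isg15: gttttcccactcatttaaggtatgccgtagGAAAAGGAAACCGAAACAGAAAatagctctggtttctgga
Ifit1: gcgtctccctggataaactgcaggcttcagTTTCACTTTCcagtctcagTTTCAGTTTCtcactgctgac
Rsad2: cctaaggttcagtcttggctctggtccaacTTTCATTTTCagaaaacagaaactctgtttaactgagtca
Gbp2: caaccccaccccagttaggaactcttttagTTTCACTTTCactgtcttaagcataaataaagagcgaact
Igtp: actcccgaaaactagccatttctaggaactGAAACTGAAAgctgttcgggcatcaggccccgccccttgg

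A match is a description of letters and not a bound site. Members with a window but no match to the ISRE core were Irf7, Irf9, Oasl1, Oasl2, Ifit2, Cmpk2, Dtx3l, Ifi44, Ifi35, Xaf1, Psmb8, Tap1 and Cxcl9. This does not show that they lack the element, because only this core in these windows was searched. The ISRE core was present in 4 of the 7 interferon gamma targets among the members (57.1%) and in 12 of the other 22 with a window (54.5%), shares that were near to each other. Dhx58, Zbp1, Oas2, Usp18, Rtp4, Parp9, Parp14 and Ifi27l2a had no window in the table used.

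Of the transcription factors, Irf7 amplifies type I interferon production, and Stat2 and Irf9 carry the type I signal to the ISRE. Irf7 (probe A_51_P421876) had log2 ratios of -1.15, -1.71, -1.12, -1.16 and -1.44 in the controls, and of 0.89, -0.80, -0.90, -0.87 and -0.45 at 54 µg of NRCWE-043. All 5 treated arrays lay above all 5 controls, the lowest at -0.90 against the highest control at -1.12. The difference was 0.89 ± 0.27 (SE), a fold of 1.85, and it did not pass (limma adjusted p = 0.569). Without replicate 1 it was 0.56, with 4 of 4 arrays above every control.

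In the group at 54 µg of NRCWE-044 Irf7 had ratios of -1.25, 0.36, -0.68, -1.34 and -0.46, with 3 of 5 arrays above every control (difference 0.64 ± 0.27, adjusted p = 0.793). After 54 µg of NRCWE-045 the ratios of -1.48, -0.97, -1.34, -1.42 and -1.27 overlapped the controls (0.02 ± 0.27). The ratios of the 3 mice at 18 µg of NRCWE-045 were -0.94, -0.89 and -0.69, all above the highest control. At 18 µg of NRCWE-043 they were -1.71, -0.84, -0.76, -1.16 and -0.93, and at 18 µg of NRCWE-044 they ran from -1.54 over a median of -1.17 to -0.84, both overlapping the controls. Over all 14 arrays at 18 µg, 9 lay above every control and 1 below every control (difference 0.28 ± 0.23), so arrays above the controls were not confined to 54 µg.

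Irf9 was 0.26 ± 0.09 above the controls at 54 µg of NRCWE-043 (0.17 without replicate 1) and 0.21 ± 0.09 above them at 54 µg of NRCWE-044. Its control ratios were 1.72, 1.44, 1.26, 1.48 and 1.5, and 3 of 5 and 2 of 5 treated arrays were above the highest. Stat2 had control ratios of 1.38, 0.88, 0.61, 0.83 and 0.97, and ratios of 2.00, 0.85, 0.95, 1.27 and 1.15 at 54 µg of NRCWE-043. Only replicate 1 was above every control, and the difference of 0.31 ± 0.15 was 0.12 without it. All 3 factors were higher at the unadjusted threshold at 54 µg of NRCWE-043 (1 of 3 without replicate 1), 2 of 3 at 54 µg of NRCWE-044 and 0 of 3 at 54 µg of NRCWE-045.

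The nucleic acid sensors were Ifih1, which encodes the RNA helicase MDA5, Dhx58, which encodes the related LGP2, and Zbp1, a sensor of Z-form nucleic acid. Zbp1 had control ratios of 0.21, -0.98, -0.84, -0.20 and -0.55 and ratios of 1.2, -0.45, -0.43, -0.15 and -0.11 at 54 µg of NRCWE-043. Only replicate 1 lay above the controls, and the difference was 0.48 ± 0.23 with it and 0.19 without it. A second Zbp1 probe gave 0.89 for the same comparison. Dhx58 differed by 0.51 ± 0.19 (0.26 without replicate 1), and Ifih1 by 0.16 ± 0.16 (0.06 without it), where its second, dimmer probe gave -0.04. For 54 µg of NRCWE-044 none of the 3 met the unadjusted threshold (0 of 3), and the median difference was 0.30.

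The oligoadenylate synthetases make a short nucleotide chain that switches on RNase L, and Eif2ak2 encodes PKR, a kinase that stops translation on double-stranded RNA. This group of 6 had the largest median differences of the roles with at least 3 members, 0.69 at 54 µg of NRCWE-043 and 0.51 at 54 µg of NRCWE-044, with 4 of 6 members higher at the unadjusted threshold in each, against 2.52 and 3.24% of features. Without replicate 1 of NRCWE-043 the first median was 0.35 and the first count 2 of 6. Oas2 (probe A_55_P2019719) had the smallest p of any member at 54 µg of NRCWE-043. Its control ratios were -0.04, -0.72, -0.99, -0.69 and -0.79, and those at 54 µg of NRCWE-043 were 1.72, 0.03, 0.16, 0.02 and 0.20. All 5 treated arrays were above every control, the lowest at 0.02 against the highest control, replicate 1, at -0.04.

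The Oas2 difference was 1.07 ± 0.26 (95% interval 0.54 to 1.60), a fold of 2.11, with a limma adjusted p of 0.437. Without replicate 1 of the treated group it was 0.75, and 4 of 4 arrays stayed above every control. In mice given 54 µg of NRCWE-044 the Oas2 ratios were 0.09, 0.79, -0.11, -0.17 and 0.06, 3 of 5 above every control (difference 0.78 ± 0.26, adjusted p = 0.634). With 54 µg of NRCWE-045 they were -0.49, -0.39, -0.68, -0.01 and -0.44, with 1 array above every control (0.25 ± 0.26).

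At 18 µg, Oas2 ratios were -0.49, -0.52, -1.04, -0.53 and -0.81 for NRCWE-043, ran from -1.44 over a median of -0.74 to -0.17 for NRCWE-044, and were 0.34, -0.59 and 0.10 for NRCWE-045. The first 2 groups did not exceed the highest control on any array, and 2 of the 3 mice given NRCWE-045 did (difference 0.60 ± 0.30, limma adjusted p = 0.650). Members whose every array lay above every control were Oas2 and Irf7 at 54 µg of NRCWE-043 (2 of 37, against 0.331% of all features), Oasl1 at 54 µg of NRCWE-044 (1 of 37, against 0.675%) and Irf7 at 18 µg of NRCWE-045 (1 of 37, against 3.18%).

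Oas1a had control ratios of -0.06, -1.22, -1.14, -0.59 and -0.76. In the group at 54 µg of NRCWE-043 its ratios were 2.02, -0.47, -0.20, 0.32 and 0.20, and at 54 µg of NRCWE-044 they were -0.10, 1.07, -0.45, -0.01 and 0.31. In each group 3 of 5 arrays were above every control, and the others were inside the control range. The differences were 1.13 ± 0.32 (limma adjusted p = 0.540, and 0.72 without replicate 1) and 0.92 ± 0.32 (adjusted p = 0.652), and 0.37 ± 0.32 at 54 µg of NRCWE-045. A second, dimmer Oas1a probe gave 0.98, 0.69 and 0.15.

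Oasl2, a synthetase-like protein, had control ratios from 0.58 to 1.33, and ratios of 2.94, 1.09, 1.54, 1.08 and 1.81 at 54 µg of NRCWE-043 (difference 0.65 ± 0.24, and 0.34 without replicate 1). Oasl1, the gene set apart above at 54 µg of NRCWE-044, ran from -3.07 to -2.48 in the controls and from -2.475 to -1.88 there, where the highest control was at -2.480, so the groups all but touched (0.58 ± 0.25, adjusted p = 0.802). Oas3 was 0.37 ± 0.16 above the controls at 54 µg of NRCWE-044 and 0.30 ± 0.16 at 54 µg of NRCWE-043, where the value without replicate 1 was 0.08. Eif2ak2 differed by 0.18 ± 0.15 at 54 µg of NRCWE-043 (0.05 without replicate 1) and by 0.16 ± 0.15 at 54 µg of NRCWE-044.

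**Figure D3:**
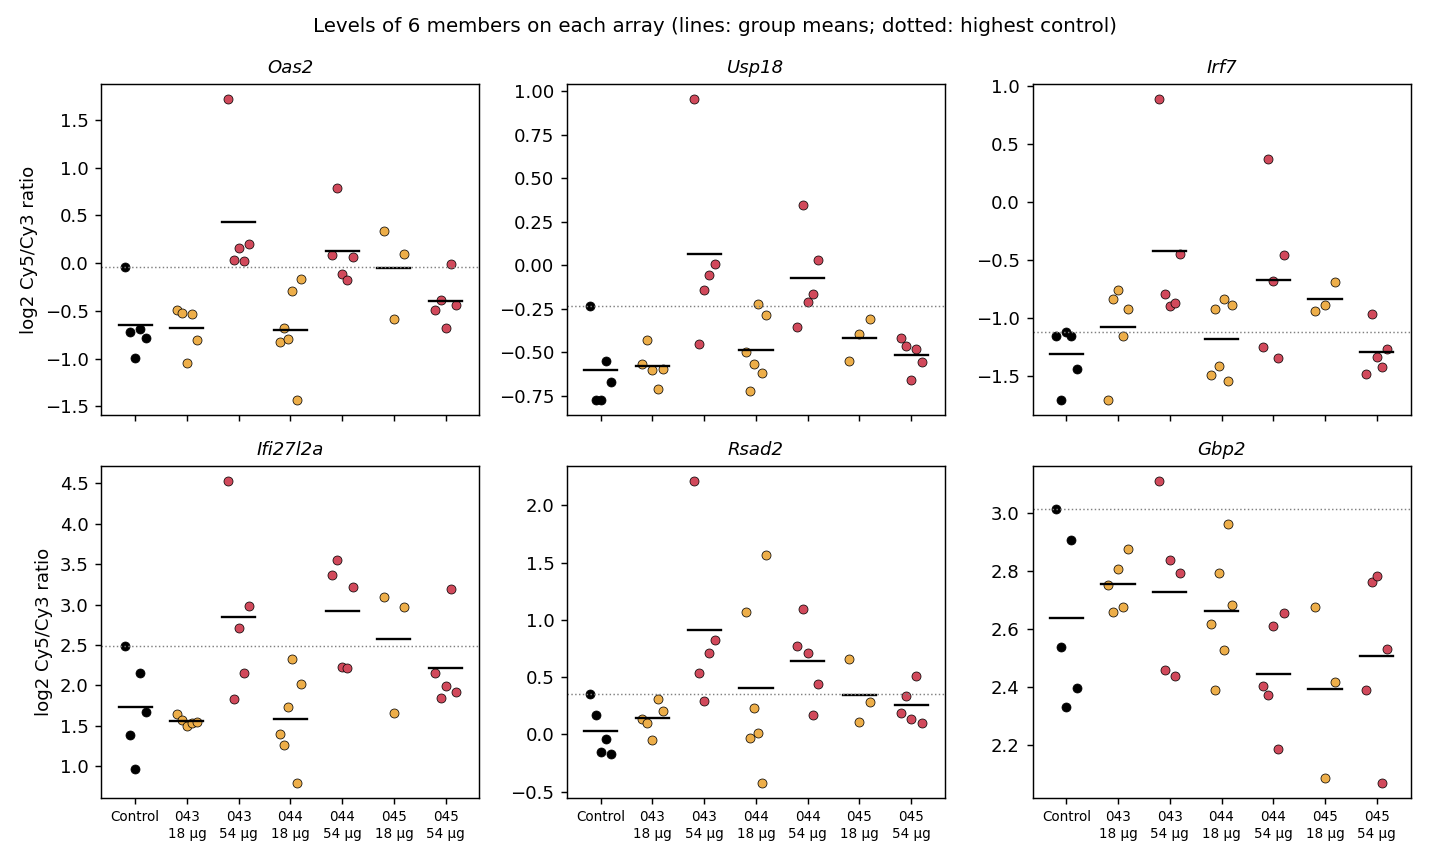
Log2 ratio to reference RNA (vertical axis) on each array in the 7 groups for Oas2, Usp18, Irf7, Ifi27l2a, Rsad2 and Gbp2, with group means as short lines and the highest control as a dotted line. After 54 µg of NRCWE-043 the Oas2 arrays begin at 0.02, above the highest control at -0.04, whereas the Gbp2 arrays, from 2.44 to 3.11, overlap controls from 2.33 to 3.01.

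IFIT proteins bind viral RNA ends and restrain their translation. Ifit1 had control ratios of 0.24, -0.26, -0.61, -0.30 and -0.15, and ratios of 1.84, -0.45, 0.01, 0.37 and 0.25 at 54 µg of NRCWE-043. That was 3 of 5 arrays above every control, and a difference of 0.62 ± 0.25 that was 0.26 without replicate 1. Ifit3 differed less. Its control ratios were 2.60, 2.34, 1.98, 2.37 and 2.42, those at 54 µg of NRCWE-043 were 3.17, 1.88, 2.01, 2.34 and 2.33, and the means differed by 0.00 ± 0.16. Without replicate 1 the Ifit3 difference was -0.20.

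In the ISG15 system, Isg15 encodes a ubiquitin-like tag and Usp18 the protease that removes it and damps the type I receptor. Usp18 (probe A_55_P2114953) had control ratios of -0.24, -0.77, -0.78, -0.55 and -0.67. At 54 µg its ratios were 0.96, -0.45, -0.14, -0.06 and 0.00 for NRCWE-043 and -0.35, 0.35, -0.21, -0.17 and 0.03 for NRCWE-044. In each group 4 of 5 arrays were above every control and 1 lay between control replicate 1 and the other 4 controls.

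The Usp18 differences were 0.66 ± 0.16 (95% interval 0.33 to 0.99, limma adjusted p = 0.437) and 0.53 ± 0.16 (0.20 to 0.86, adjusted p = 0.564), and the first was 0.44 without replicate 1. For 54 µg of NRCWE-045 the Usp18 ratios of -0.42, -0.46, -0.66, -0.48 and -0.56 all lay inside the control range (0.08 ± 0.16). Isg15 had control ratios of -0.20, -0.72, -1.47, -1.25 and -1.17, and ratios of 1.45, -1.05, -0.81, -0.02 and -0.79 at 54 µg of NRCWE-043. There 2 of 5 arrays exceeded the controls, and the difference of 0.72 ± 0.31 was 0.30 without replicate 1. In mice given 54 µg of NRCWE-044 Isg15 differed by 0.16 ± 0.31 and at 54 µg of NRCWE-045 by -0.19 ± 0.31.

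Among the other antiviral effectors, Rsad2 encodes viperin, an enzyme that makes a chain-ending nucleotide, and Cmpk2 lies beside it and supplies its substrate. Rsad2 had control ratios of 0.35, 0.17, -0.16, -0.04 and -0.17, ratios of 2.21, 0.54, 0.29, 0.71 and 0.83 at 54 µg of NRCWE-043, and 0.77, 1.1, 0.71, 0.17 and 0.44 at 54 µg of NRCWE-044. In both groups 4 of 5 arrays were above every control (differences 0.88 ± 0.28 and 0.61 ± 0.28, limma adjusted p = 0.600 and 0.823), and the first was 0.56 without replicate 1. The 6 mice at 18 µg of NRCWE-044 had Rsad2 ratios from -0.42 over a median of 0.12 to 1.57, the widest range of the 7 groups. Rtp4 differed by 0.36 ± 0.21 at 54 µg of NRCWE-043 (0.17 without replicate 1) and by 0.35 ± 0.21 at 54 µg of NRCWE-044. Cmpk2 differed by 0.45 ± 0.19 (0.27 without replicate 1) and 0.11 ± 0.19, where a second Cmpk2 probe gave 0.23 for NRCWE-044.

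Bst2, which encodes tetherin, an anchor that holds budding viruses at the cell surface, was lower than in the controls in several groups. Its control ratios were 0.68, 0.36, -0.17, -0.22 and -0.31, so that controls 1 and 2, both on slide 1, set its upper end. With 54 µg of NRCWE-045 the ratios were -0.86, 0.14, -0.45, -0.47 and -0.54, with 4 of 5 arrays below every control (difference -0.51 ± 0.25, limma adjusted p = 1.000). At 18 µg the differences were -0.51 ± 0.25 for NRCWE-043 and -0.52 ± 0.24 for NRCWE-044, with 3 of 5 and 4 of 6 arrays below every control. In the group at 54 µg of NRCWE-043 Bst2 differed by 0.09 ± 0.25, and by -0.12 without replicate 1, so that the direction there turned with 1 array.

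The PARP and DTX3L group, partners in ADP-ribosylation and ubiquitination at interferon-responsive chromatin, differed from the controls by at most 0.34 at 54 µg. After 54 µg of NRCWE-043 Dtx3l differed by 0.34 ± 0.11 (0.24 without replicate 1), Parp14 by 0.27 ± 0.13 (0.13 without it) and Parp9 by 0.23 ± 0.11 (0.10 without it), and the group's median at 54 µg of NRCWE-044 was 0.10. Among the other induced genes, Ifi27l2a, a mitochondrial protein gene used as an interferon marker (probe A_52_P90363), had control ratios of 2.48, 1.39, 0.96, 2.16 and 1.67, the controls alone reaching from 0.96 to 2.48.

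At 54 µg the Ifi27l2a ratios were 4.52, 1.83, 2.71, 2.15 and 2.98 for NRCWE-043, 3.36, 3.55, 2.23, 2.22 and 3.22 for NRCWE-044 and 2.15, 1.84, 2.00, 3.19 and 1.91 for NRCWE-045. Above every control lay 3, 3 and 1 of the 5 arrays. The differences were 1.11 ± 0.39 (limma adjusted p = 0.703), 1.19 ± 0.39 (adjusted p = 0.619) and 0.49 ± 0.39 (adjusted p = 1.000), and the first was 0.69 without replicate 1. At 18 µg its ratios were 1.65, 1.58, 1.49, 1.53 and 1.55 for NRCWE-043, all inside the control range, ran from 0.80 over a median of 1.57 to 2.33 for NRCWE-044, and were 3.09, 1.66 and 2.97 for NRCWE-045 (0.84 ± 0.45).

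Trim30a, an interferon-induced TRIM protein gene, had control ratios of 1.61, 1.00, 0.87, 1.23 and 1.14 and ratios of 2.41, 1.49, 1.62, 1.38 and 1.79 at 54 µg of NRCWE-043. Its difference of 0.57 ± 0.15 (limma adjusted p = 0.521) was 0.40 without replicate 1, and 3 of 5 arrays were above every control. Ifi44 had ratios of 0.79, -0.92, -0.85, -0.63 and -0.81 there against controls of -0.72, -1.05, -1.66, -1.0 and -1.18 (0.64 ± 0.24, and 0.32 without replicate 1). Xaf1 differed by 0.36 ± 0.17 (0.20 without replicate 1), and by 0.22 on its second probe. Ifi35 was the 1 member below its control mean at 54 µg of NRCWE-043, by -0.03 ± 0.13 (-0.11 without replicate 1).

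The interferon gamma targets were the GTPases Gbp2, Gbp3, Igtp and Irgm1, which attack vacuoles that hold microbes, the immunoproteasome subunit gene Psmb8, the peptide transporter gene Tap1, and Cxcl9, whose product draws T cells through CXCR3. Their median difference was 0.14 at 54 µg of NRCWE-043, -0.13 at 54 µg of NRCWE-044 and -0.12 at 54 µg of NRCWE-045, and 1 of 7, Irgm1, was higher at the unadjusted threshold in the first. The other 30 tested members had medians of 0.46, 0.20 and -0.01, with 20, 9 and 0 higher at that threshold. Without replicate 1 of NRCWE-043 at 54 µg the first medians were 0.02 for the interferon gamma targets, with 0 of 7 higher in limma, and 0.22 for the others, with 7 of 30. The mean scores of the interferon gamma targets in the 5 controls were 0.59, -0.30, -0.25, 0.22 and -0.25. Those of the other members were 0.40, -0.12, -0.32, 0.09 and -0.06. Control replicate 1 was thus the highest control in both sets, and the medians of the 2 sets were not computed without it. The small negative medians of the interferon gamma targets may therefore rest on that control. These medians describe the members and were not tested against each other.

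Gbp2 had control ratios of 3.01, 2.54, 2.33, 2.91 and 2.40 and ratios of 3.11, 2.46, 2.84, 2.44 and 2.79 at 54 µg of NRCWE-043, and 2.40, 2.37, 2.61, 2.19 and 2.66 at 54 µg of NRCWE-044. The groups overlapped, with differences of 0.09 ± 0.15 (-0.01 without replicate 1) and -0.19 ± 0.15. Igtp had control ratios of 2.12, 1.14, 1.42, 1.59 and 1.22, and differed by 0.21 ± 0.19 (0.02 without replicate 1) and -0.23 ± 0.19. Psmb8 differed by 0.04 ± 0.15 (-0.13 without replicate 1) and 0.13 ± 0.15, so that both intervals include 0. Gbp2, Igtp, Irgm1 and Gbp3 carried the ISRE core in their windows as Oas1a did.

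Cxcl9 had control ratios of 2.85, 0.78, 0.17, 1.49 and 0.42, the controls alone reaching from 0.17 to 2.85. Those at 54 µg of NRCWE-043 were 3.03, 1.26, 0.42, 0.73 and 0.36, and replicate 1 alone exceeded the controls (0.02 ± 0.51, -0.45 without replicate 1, and -0.07 on a second probe). Cxcl10, its partner ligand, had control ratios of 0.31, -1.75, -1.71, -0.91 and -1.57 and ratios of 1.48, -0.63, -1.52, -0.99 and -0.89 there (0.62 ± 0.45, and 0.12 without it). For 54 µg of NRCWE-044 Cxcl9 differed by -0.41 ± 0.51 and Cxcl10 by -0.28 ± 0.45. With such spreads among controls, differences of this size were not detectable.

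**Figure D4:**
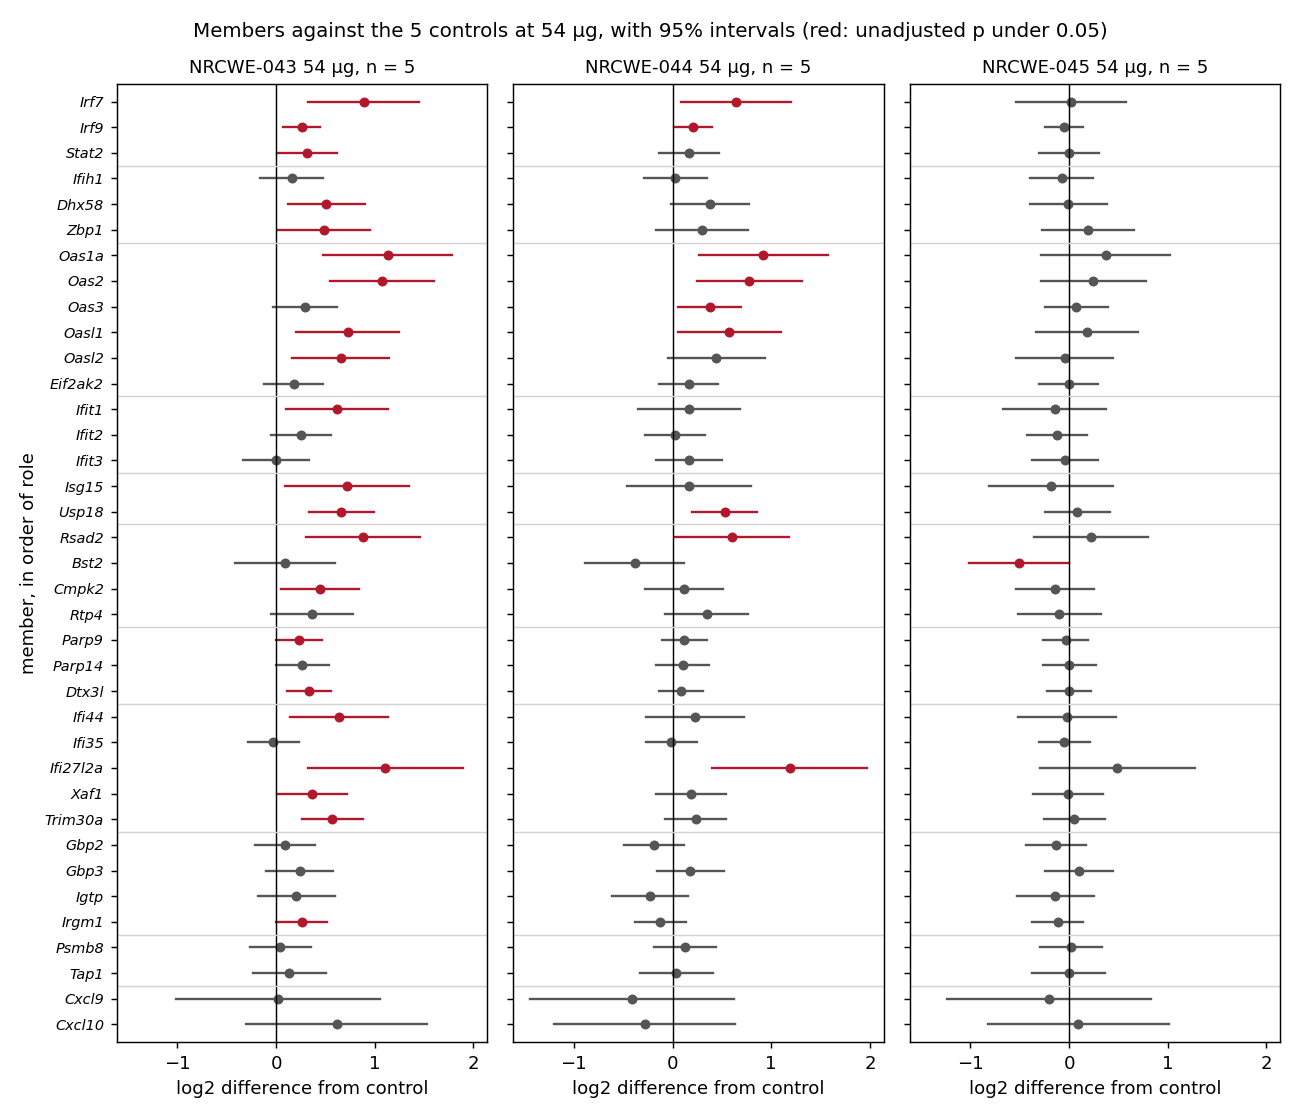
Difference from the controls (log2, with 95% intervals, horizontal axis) for each of the 37 members at 54 µg of each material, in red where the unadjusted p was under 0.05. The values run from -0.03 to 1.13 for NRCWE-043, from -0.41 to 1.19 for NRCWE-044 and from -0.51 to 0.49 for NRCWE-045.

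Replicate 1 of NRCWE-043 at 54 µg was the highest array of its group in most members. It lay above every control in 35 of 37 members, where 18.5% of all features did. The other 4 arrays of the group did so in 5, 8, 17 and 14 members, where 17.6, 16.4, 18.8 and 15.8% of all features did. It was 2.37 above the control mean in Oas2 and 2.20 in Irf7. Marker lists also stood high on it: the monocyte and interstitial macrophage score was 0.86 (controls from -0.32 to 0.31), the B and plasma cell score 0.64 (controls from -0.44 to 0.22), the T and NK cell score 0.50 (controls from -0.15 to 0.28) and the neutrophil score 0.60 (controls from -0.34 to 0.37). The cardiac muscle score was 1.14, against controls from -1.17 to 0.99. Other treated arrays also stood high in several of these lists. At 54 µg of NRCWE-044 the B and plasma cell scores ran from 0.50 to 0.82, and the neutrophil score reached 0.90. The neutrophil score reached 1.72 at 18 µg of NRCWE-045. At 54 µg of NRCWE-045 the T and NK cell score reached 0.47 and the cardiac muscle score 2.52. The part of these cells in the interferon values was not tested.

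On slides that held both controls and treated arrays, the score difference at 54 µg of NRCWE-043 was 1.21 on slide 1, 0.34 on slide 2 and 0.02 on slide 3. For Oas2 it was 2.10, 1.03 and 0.85, and for Usp18 1.46, 0.32 and 0.41, positive on each. In mice given 54 µg of NRCWE-044 the score differences on slides 1, 2, 3 and 5 were -0.02, 0.81, -0.04 and 0.45, whereas those of Oas2 were 0.47, 1.78, 0.58 and 0.85 and those of Usp18 0.15, 1.12, 0.34 and 0.70. Oas2 and Usp18 were thus above the mean of the same slide's controls in all 7 such comparisons. Each comparison held 1 treated array and 1 or 2 controls. On slide 1, Usp18 at 54 µg of NRCWE-044 (-0.35) lay above that mean but below control replicate 1 (-0.24). Both genes were among the members with the smallest p-values on these same arrays, so the slide values are not separate support. At 54 µg of NRCWE-045 the Oas2 differences on slides 1, 2, 3 and 5 were -0.11, 0.60, 0.01 and 0.35. Those of Usp18 were 0.09, 0.31, -0.11 and 0.11. On slide 2 the only control was replicate 3, the control with the lowest score. The score differences at 18 µg there were also positive, 0.26 for NRCWE-043, 0.12 for NRCWE-044 and 0.17 for NRCWE-045.

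**Figure D5:**
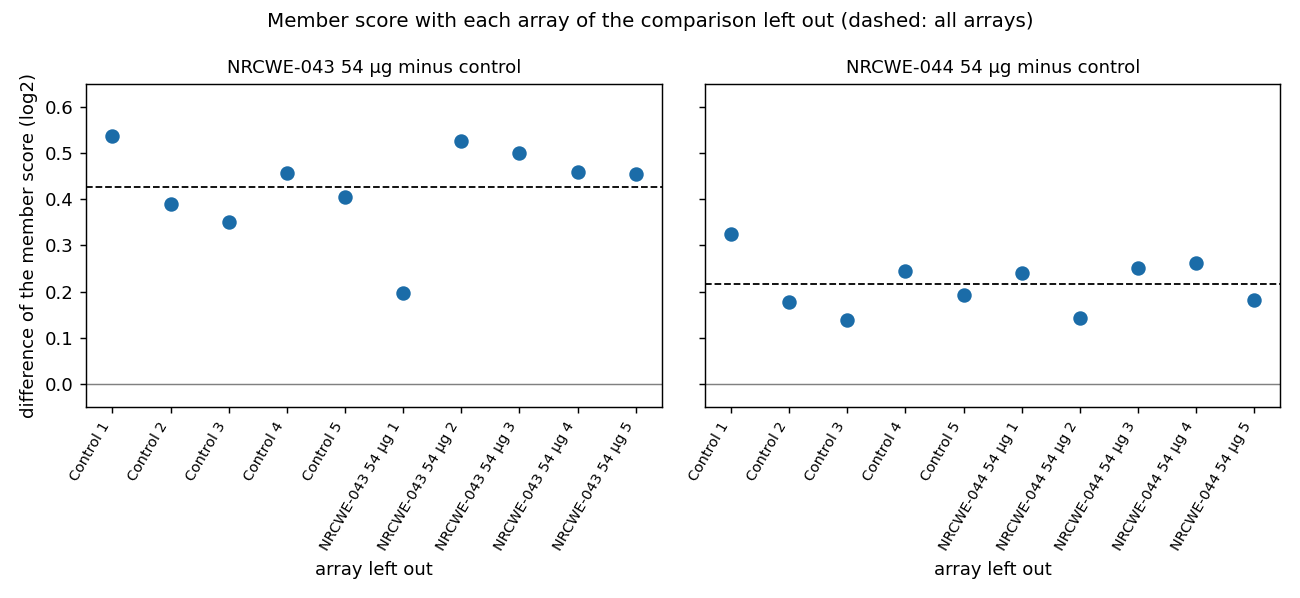
Member score difference from the controls (log2, vertical axis) at the 54 µg dose for NRCWE-043 and for NRCWE-044, with each array of the comparison left out in turn (horizontal axis), and with all arrays as a dashed line. The NRCWE-043 value of 0.427 moves between 0.197 and 0.536, and the NRCWE-044 value of 0.215 between 0.139 and 0.324.

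The doses of each material were compared next. For NRCWE-043, 34 of 37 members were higher at 54 than at 18 µg (median 0.42, against 50.8% of features higher), and 25 met the unadjusted threshold, against 1.61% of features. Oas2 was 1.11 ± 0.26 higher, Usp18 0.64 ± 0.16 and Trim30a 0.59 ± 0.15 (limma adjusted p = 1.000 for each). Without replicate 1 the median was 0.27, the count 11, and these 3 differences 0.78, 0.42 and 0.42. For NRCWE-044, 34 members were higher at 54 µg (median 0.17, against 49.7% of features) and 7 met the threshold, against 2.89%, with Ifi27l2a 1.33 ± 0.37 higher (adjusted p = 0.696). For NRCWE-045, 9 members were higher at 54 µg (median -0.09, against 48.8% of features) and 0 met the threshold, against 0.798%.

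Whether the step between doses differed between materials was tested as a difference of differences. For NRCWE-043 against NRCWE-045, 20 members had a larger step at the unadjusted threshold, against 1.76% of features, led by Oas2 with 1.46 ± 0.40 (limma adjusted p = 0.999), and 13 without replicate 1. For NRCWE-044 against NRCWE-045 there were 7, against 1.92%, again with Oas2 first by 1.18 ± 0.39. For NRCWE-043 against NRCWE-044 there were 3, against 1.62%, and 0 in limma without replicate 1. None of these members passed the adjusted test (0 in limma).

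The materials were compared with each other at matched doses in 6 pairs, with p-values adjusted over the features of all 6 pairs together. At 54 µg all 37 members were higher with NRCWE-043 than with NRCWE-045 (median 0.38, against 47.3% of features), and 22 met the unadjusted threshold, against 1.9% of features. Usp18 was higher by 0.58 (95% interval 0.25 to 0.91, limma adjusted p = 0.281), Oas2 by 0.83 (0.30 to 1.36, adjusted p = 0.388) and Irf7 by 0.87 (0.31 to 1.43, adjusted p = 0.395). Without replicate 1 the median was 0.21, 32 members were higher, the count was 9, and these 3 differences were 0.35, 0.51 and 0.54. These differences did not pass, and the intervals reach far above 0, so they do not show that the materials act alike.

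NRCWE-044 exceeded NRCWE-045 at 54 µg in 32 of 37 members (median 0.18, against 52.4% of features), and 5 met the unadjusted threshold, against 1.32%. Irf9 was higher by 0.26 (0.07 to 0.45, limma adjusted p = 0.536) and Usp18 by 0.45 (0.12 to 0.77, adjusted p = 0.563). NRCWE-043 exceeded NRCWE-044 at 54 µg in 32 members (median 0.18, against 46.1% of features), and 4, namely Irgm1, Igtp, Dtx3l and Trim30a, met the threshold, against 2.07%. Irgm1 was higher by 0.38 (0.13 to 0.64, adjusted p = 0.443). Without replicate 1 this last median was -0.04, so that its direction turned, and the count was 1. Against the controls, the Irgm1 probe used gave 0.26 for NRCWE-043 (0.14 without replicate 1) and -0.13 for NRCWE-044. A second, dimmer Irgm1 probe gave 0.20 and -0.03, a smaller gap between the materials.

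At 18 µg the members' median differences from the controls lay nearer 0 than at 54 µg for NRCWE-043 and NRCWE-044. For NRCWE-045 the median lay further from 0 at 18 µg (0.10, against -0.01 at 54 µg). With 18 µg of NRCWE-045, Ifi27l2a, Oas2 and Oasl1 differed by 0.84, 0.60 and 0.55. Against the controls at 18 µg, 11 of 37 members were above the control mean for NRCWE-043 (median -0.06, 46.4% of features above), 16 for NRCWE-044 (median -0.01, 50.4% above) and 25 for NRCWE-045 (median 0.10, 50.7% above). None was higher at the unadjusted threshold in any of the 3 groups (0 of 37 in each in limma, against 1.65, 1.62 and 5.04% of features). Ifit3 was lower for NRCWE-043, with ratios of 2.07, 2.00, 2.00, 1.68 and 2.01 against controls from 1.98 to 2.60 (-0.39 ± 0.16, adjusted p = 0.980). With Bst2 it made 2 members lower at that threshold, against 2.7% of features, and at 18 µg of NRCWE-044 Bst2 was the only 1, against 1.52%. Over the 14 arrays at 18 µg, 14 members were above the control mean, against 50.3% of features, and 0 were higher at that threshold, against 1.84%. The members with the smallest p in limma over these arrays were Bst2 (-0.36 ± 0.21), Irgm1 (-0.15 ± 0.11) and Irf7 (0.28 ± 0.23). Eif2ak2 differed by -0.21 ± 0.15 at 18 µg of NRCWE-043, and Igtp by -0.29 ± 0.18 and Irgm1 by -0.18 ± 0.12 at 18 µg of NRCWE-044.

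Between materials at 18 µg, Ifit3 was lower with NRCWE-043 than with NRCWE-044 by 0.55 on the log2 scale (interval -0.87 to -0.23 for the difference of -0.55, limma adjusted p over the pairs = 0.314). It was the 1 member lower at the unadjusted threshold in that pair, against 3.84% of features. For NRCWE-043 against NRCWE-045, 3 members were lower, Ifit3, Ifi27l2a and Oas2, against 7.26%, and 1, Gbp2, was higher, against 3.46%. For NRCWE-044 against NRCWE-045, Ifi27l2a differed by -0.98 (-1.86 to -0.11) and Oas2 by -0.65 (-1.24 to -0.06), the 2 members lower there, against 4.13%. The 3 mice at 18 µg of NRCWE-045 also had high liver markers, with scores from 0.63 to 4.07 against controls from -0.15 to 0.17, and the part of these in the interferon values was not tested.

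The wider pathway was followed in 115 other genes, of which 101 were tested and none passed the adjusted threshold (0 in limma). With 54 µg of NRCWE-043, 16 of the 101 were higher at the unadjusted threshold, against 2.52% of features, and 1 was lower, against 3.11%. Without replicate 1 there were 7 higher, against 2.08%. With 54 µg of NRCWE-044, 8 were higher and 3 lower, against 3.24 and 2.6%, and with 54 µg of NRCWE-045 3 were higher, against 2.02%. Of the ligands, 10 of 16 were tested and 0 met the unadjusted threshold in any group. Ifnb1, the gene of interferon beta, did not pass the filter on dim probes, and Ifng, that of interferon gamma, differed by 0.04 ± 0.18 for NRCWE-043 (-0.16 without replicate 1), -0.01 ± 0.18 for NRCWE-044 and 0.05 ± 0.18 for NRCWE-045 at 54 µg.

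The type I receptor chains differed little: Ifnar1 by -0.11 ± 0.14 and Ifnar2 by 0.01 ± 0.08 at 54 µg of NRCWE-043, and by 0.19 ± 0.14 and -0.16 ± 0.08 at 54 µg of NRCWE-044. Irf1, an early interferon target, differed by 0.18 ± 0.11 and -0.11 ± 0.11, and Irf8, a factor of monocytes and dendritic cells, by 0.21 ± 0.10 and 0.18 ± 0.10.

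Tlr7, an endosomal sensor of single-stranded RNA, was higher at 54 µg by 0.35 ± 0.16 for NRCWE-043, 0.39 ± 0.16 for NRCWE-044 and 0.37 ± 0.16 for NRCWE-045 (limma adjusted p = 0.852, 0.747 and 1.000). Myd88, its adaptor, differed by 0.19 ± 0.10, 0.10 ± 0.10 and -0.02 ± 0.10, and Socs1, a feedback inhibitor, by 0.37 ± 0.18, 0.06 ± 0.18 and -0.17 ± 0.18. Of the further induced genes, Ifi47 differed by 0.31 ± 0.14 and 0.01 ± 0.14 at 54 µg of NRCWE-043 and NRCWE-044, Iigp1 by -0.15 ± 0.25 and -0.10 ± 0.25, Ifitm3 by 0.02 ± 0.23 and -0.08 ± 0.23, and Psmb9 by 0.08 ± 0.14 and 0.06 ± 0.14. Without replicate 1 of NRCWE-043 the first values of Ifi47, Iigp1, Ifitm3 and Psmb9 were 0.20, -0.43, -0.14 and -0.06, and that of Socs1 was 0.21. The NRCWE-043 values of Ifnar1, Ifnar2, Irf1, Irf8, Tlr7 and Myd88 are given only with that array included.

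Markers of immune cells that respond to or make interferon were set beside these values. Of 8 tested monocyte and interstitial macrophage markers, 4 were higher at the unadjusted threshold at 54 µg of NRCWE-043, 2 at 54 µg of NRCWE-044 and 1 at 54 µg of NRCWE-045, against 2.52, 3.24 and 2.02% of features. Its score ranged from -0.07 to 0.86, 0.17 to 0.40 and -0.02 to 0.34. Without replicate 1 of NRCWE-043, whose score was the 0.86, the first count was 1, and the other 4 arrays of that group lay inside the control range of -0.32 to 0.31. One of the 8, Fcgr1, is itself induced by interferon. Of 7 B and plasma cell markers, 2 (1 without that array), 3 and 1 were higher (scores from 0.04 to 0.77, 0.50 to 0.82 and 0.22 to 0.57), and of 9 plasmacytoid dendritic cell markers 1 in each (scores from -0.09 to 0.36, -0.04 to 0.40 and 0.01 to 0.30). Siglech of plasmacytoid dendritic cells was well above background on all 34 arrays and Runx2, of the same list, on 15. The T and NK cell scores ran from -0.12 to 0.50, 0.11 to 0.29 and -0.14 to 0.47, against controls from -0.15 to 0.28. Alveolar macrophage scores, from -0.41 to 0.24, -0.12 to 0.29 and -0.17 to 0.14, lay inside the control range of -0.42 to 0.42. At 18 µg the mean B and plasma cell scores of the 3 materials were 0.24, 0.32 and 0.53, where no member was higher at the unadjusted threshold. The part of these cells in the interferon values was not tested.

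The genes outside the list whose profile over the 34 arrays was most like the member score were Phf11d (Spearman correlation 0.80), Ifi204 (0.80), Ifi211 (0.79), Phf11a (0.77), Trex1 (0.72), Fcgr1 (0.72), Slfn8 (0.71) and Mndal (0.71). Over the 33 arrays without replicate 1 of NRCWE-043 at 54 µg these were 0.78, 0.78, 0.77, 0.75, 0.69, 0.69, 0.69 and 0.69. The arrays share their reference RNA and their slides, so these values describe likeness only. Among the members, Dhx58 and Irf9 followed the mean of the other members most closely (both 0.85), and Ifi35 (0.01), Oas3 (0.21) and Gbp2 (0.23) least.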

How the data were processed

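Lung RNA (Cy5) and reference RNA (Cy3) were hybridised together on 34 two-colour Agilent arrays, which the labels give as separate samples of a group, so p-values measure the spread between these samples. Per the file headers, the authors extracted spots with Feature Extraction 11.0.1.1. The deposited scanner files give intensity as median pixel brightness of spot and local background, processed intensity, and flags of 0 or 1, recorded under the unit other, for spots well above background or irregular. A log2 ratio of Cy5 to Cy3 per probe is in the deposited series table, whose processing is not given in the sources used here.

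Groups came from the labels. One control array is titled with NRCWE-043 and a dose of 0 µg, while its treatment reads Control, and it is control replicate 3 here. Replicates are numbered in deposit order. The plan spoke of spot signals in general, and medians were used because the files hold these.

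Background was corrected with normexp (offset 50), ratios were normalized by loess within arrays, and control and irregular spots had weight 0 (limma 3.58.1, statmod 1.5.0, R 4.3.3). Of 62976 spots, 3671 were controls. Of 55681 probes, 27235 were named through RefSeq accessions, for 20660 genes. The probe with the highest mean Cy5 signal stood for a gene, and on 1 or more arrays 210 probes lacked a value. A feature was tested if its Cy5 signal was well above background on 3 arrays or more, as 29316 were. A model of 7 group means was fitted to each and moderated in limma, p-values were adjusted by the Benjamini-Hochberg method at 0.05, and the material pairs were adjusted together. The number of arrays limits precision. The method was tested on simulated data.

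The members, gene lists and comparisons were chosen with earlier results of these data known. Genes named with values were a listed set of members and pathway genes, the 3 members with the largest absolute moderated t in each comparison with the controls, and the 8 genes most like the member score, and members named for other counts were chosen after their values were seen. A pathway gene of the listed set is not reported here. Alternatives were slide as a block, other background corrections and normalizations, the processed signals, the deposited series table, all probes of a gene averaged, other filters, a fit of only the groups compared, and each array left out.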

Additional observations from a re-analysis of the deposited data

Results flagged for a closer look

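In groups of 4 to 10 arrays, 29 values and scores were looked at in 6 groups for 1 array set apart from the others by a gap that is large against the group's range, and 17 were found. Chance gives such a gap in about 1 of 20 groups. Values are log2 differences from the control mean.

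Of the 17, 9 belong to replicate 1 of NRCWE-043 at 54 µg, which was the highest array each time. There the member score was 1.35, the score of the interferon gamma targets 0.82 and that of the other members 1.47. The single genes set apart on it were Irf7 (2.20), Zbp1 (1.67), Oas2 (2.37), Rsad2 (2.18), Ifi44 (1.91) and Oasl1 (2.22).

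The other 8 were spread over groups and replicates. At 18 µg of NRCWE-043, Stat2 was highest on replicate 1 (0.10), Cxcl9 was highest on the same replicate (1.84), and Ifit3 was lowest on replicate 4 (-0.66). At 54 µg of NRCWE-044, Oas2 was highest on replicate 2 (1.43), Ifih1 was lowest on replicate 3 (-0.58) and Igtp was lowest on replicate 4 (-0.60). At 54 µg of NRCWE-045, Ifi27l2a was highest on replicate 4 (1.46) and Cxcl9 was highest on replicate 3 (1.51).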

How the results depend on the processing

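No paired analysis was possible because the sample numbers in the titles run over all samples and are not shared between groups. Arrays of different groups did share slides, and slide was used as a block. No member passed the adjusted threshold (0 in limma) under any alternative or with any array left out. The member scores and medians moved by less than 0.265, the SD of the score between replicates pooled over the groups. This is a wide limit, because it includes replicate 1 of NRCWE-043 at 54 µg, whose group had an SD of 0.528. Several scores and medians that lay near 0 changed sign. Of the 17 comparisons this was so for 6 scores and 7 medians under 1 or more alternatives or omissions, and for none of the 31 differences of named genes past the unadjusted threshold. Those 31 were selected by that threshold on the same arrays, so a change of sign was unlikely from the start. Without replicate 1 of NRCWE-043 at 54 µg the score against NRCWE-044 went from 0.212 to -0.018. At 18 µg of NRCWE-043 the score went from -0.070 to 0.038 without control replicate 1 and to 0.040 with median centring. The other sign changes were at 54 µg of NRCWE-045 and in comparisons at 18 µg. At 54 µg of NRCWE-043 the score was 0.420 to 0.499 over the alternatives and 0.197 to 0.536 with single arrays left out.

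Counts of members higher at the unadjusted threshold moved by over 1.5 times as follows. With slide as a block there were 8 for NRCWE-043 against NRCWE-044 at 54 µg and 0 for NRCWE-043 against NRCWE-045 at 18 µg. With median centring and no loess there were 1 at 18 µg of NRCWE-044, 1 at 18 µg of NRCWE-045, 3 for 54 against 18 µg of NRCWE-044, and 12 and 0 for NRCWE-043 and NRCWE-044 against NRCWE-045 at 54 µg. With quantile normalization there were 1 at 18 µg of NRCWE-045, 7 for NRCWE-043 against NRCWE-044 at 54 µg, and 2 and 1 for NRCWE-043 and NRCWE-044 against NRCWE-045 at 18 µg. The processed signals gave 1 at 18 µg of NRCWE-043 and 2 for NRCWE-043 against NRCWE-045 at 18 µg. A fit of only the groups compared, with fewer samples behind the spread, gave 12 at 54 µg of NRCWE-043, 1 at 18 µg of NRCWE-044, 4 at 18 µg of NRCWE-045, and 2 and 13 for NRCWE-043 against NRCWE-044 and NRCWE-044 against NRCWE-045 at 54 µg. The cause of the other moves was not tested.

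With single arrays left out these counts ran from 7 to 25 at 54 µg of NRCWE-043, 4 to 14 at 54 µg of NRCWE-044, 5 to 14 for all arrays at 54 µg and 0 to 4 at 18 µg of NRCWE-045. For 54 against 18 µg they ran from 11 to 28 for NRCWE-043 and 4 to 11 for NRCWE-044. At 54 µg they ran from 1 to 10 for NRCWE-043 against NRCWE-044, 9 to 25 for NRCWE-043 against NRCWE-045 and 2 to 11 for NRCWE-044 against NRCWE-045, and at 18 µg from 0 to 1 for each pair with NRCWE-045.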
